A study of Ovis aries with 42 samples.

Results

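The pars tuberalis of the ewe was compared between the luteal and the follicular phase of the estrous cycle. The comparison took the luteal columns (libraries 22 to 28, n = 7) against the follicular columns (libraries 29 to 35, n = 7) of the raw count table, 14 of 42 libraries in all. The other libraries were 7 of anestrous pars tuberalis and 21 of hypothalamus in the same 3 phases. All came from adult female Rasa Aragonesa sheep. The labels give no treatment, exact age or ewe for any library, so p-values measure the spread between these libraries, which may be technical in part. RNA was sequenced from frozen tissue, with an RNA integrity number above 7 by the labels.

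The pars tuberalis is the thin sheath of pituitary tissue around the stalk that joins the pituitary to the hypothalamus. Its thyrotroph-like cells carry melatonin receptors and read the length of the night, and in seasonal breeders their thyrotropin acts on the neighbouring hypothalamus to set the breeding season. In the luteal phase the corpus luteum secretes progesterone, which restrains gonadotropin release. In the follicular phase progesterone is withdrawn and estradiol from growing follicles leads up to the luteinizing hormone surge. The contrast therefore sets a progesterone-dominated against an estrogen-dominated stage of the same cycle in a tissue best known for seasonal timing.

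The table gives Ensembl sheep IDs without gene names, and the reference table matched 0 of them, so features are given by ID and the tissue could not be checked with known markers. A check by level was possible. A set of 81 features, over 32-fold higher in hypothalamus than in pars tuberalis in the anestrous libraries and averaging at least 10 CPM (counts scaled to library size) there, had a median level between -1.72 and 0.51 log2 CPM in the 14 libraries compared. The same median lay between 3.65 and 6.08 log2 CPM in the 21 hypothalamus libraries, so every one of the 14 lay apart from that tissue. Fewer cells of a type and less RNA per cell cannot be told apart in such bulk tissue.

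Luteal libraries held 15477537 to 25306595 counts and follicular libraries 18162414 to 25954734. A mean of 18240 ± 521 IDs had a count in luteal libraries and 18242 ± 257 in follicular libraries (SD, n = 7 each). No library was a copy of another: the most similar pair, luteal 28 and follicular 35, differed by a chi-square of 31.8 for each degree of freedom.

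Luteal library 24 stood apart from the rest. It had the fewest counts and the fewest IDs detected (17356), and its 10 largest features held 35.2% of its counts. It lay 1.12 log2 units (root mean square over features) from the luteal mean, against 0.631 to 0.766 for the other luteal libraries and 0.586 to 0.826 for the follicular libraries. In 366 features it was at least 2-fold above all 13 other libraries, against 4 to 39 features in the other luteal libraries and 2 to 74 in the follicular libraries. The first principal component held 19.8% of the variance, with library 24 at 141.4 and the other 13 libraries between -27.6 and 11.6. Where a count or group difference given here was redone without this library and moved by over 1.5 times, both values are given. Counts by level, counts from intervals, and counts of separated or lowest-p features were not redone without it. Also not redone were counts from DESeq2, limma-voom, other scalings, filters or covariates, and the phase contrast over all 42 libraries. The same holds for counts among the most abundant features and for counts of IDs seen in 1 phase alone.

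**Figure D1:**
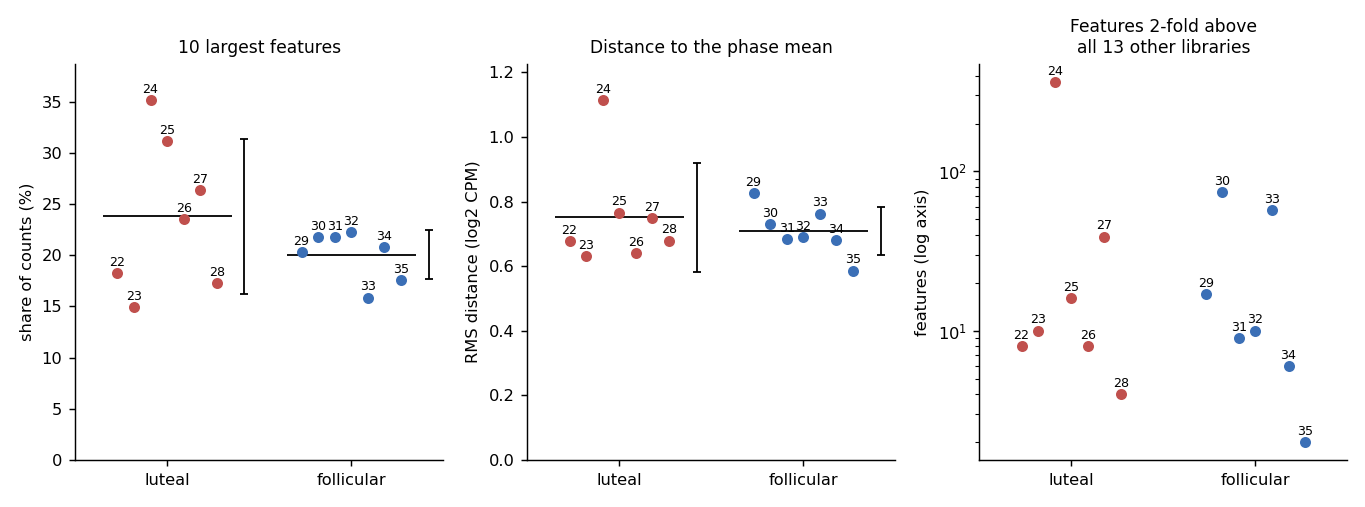
Share of counts in the 10 largest features (%), root mean square distance to the mean of the own phase (log2 CPM) and number of features at least 2-fold above all other libraries (log axis), for each luteal (left) and follicular (right) library, numbered. Horizontal lines are means and bars are SD (n = 7 each), drawn in all but the log-axis plot. Luteal library 24 is the highest of the 14 in all 3 plots, at 35.2%, 1.12 log2 units and 366 features.

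Between luteal and follicular pars tuberalis, 0 of 16301 features passed an adjusted p of 0.05 with edgeR (0% called, lowest adjusted p = 0.469). The unadjusted p was under 0.05 for 1380 features (8.47%), where 5% of the features tested is 815. The luteal phase was the higher one in 814 (4.99%) and the lower one in 566 (3.47%). DESeq2 called 11 features (8 higher, 3 lower). Library 24 was the highest of the 14 libraries in 4 of these 11. DESeq2 gave no adjusted p for 949 of the 16301 features. Weighted limma-voom called 0, and its unadjusted p was under 0.05 for 941. The excess over 5% rested on library 24: without it the unadjusted p was under 0.05 for 803 features, 401 higher and 402 lower, where 5% is 823. Without luteal 28 the number was 1813, and without any other of the libraries it lay between 1225 and 1506.

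**Figure D2:**
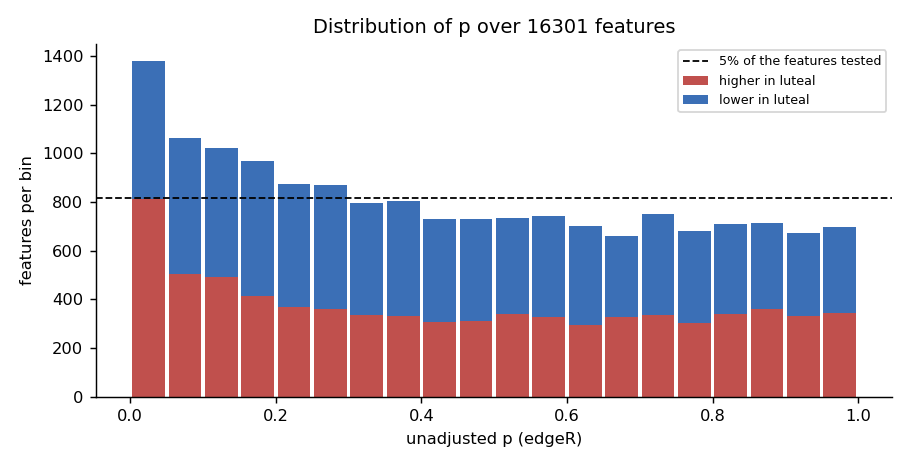
Number of features in bins of the unadjusted edgeR p, higher (red) or lower (blue) in the luteal phase, stacked. The lowest bin holds 1380 features and the next 1064, against the dashed line at 815; the highest bin holds 697.

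**Figure D3:**
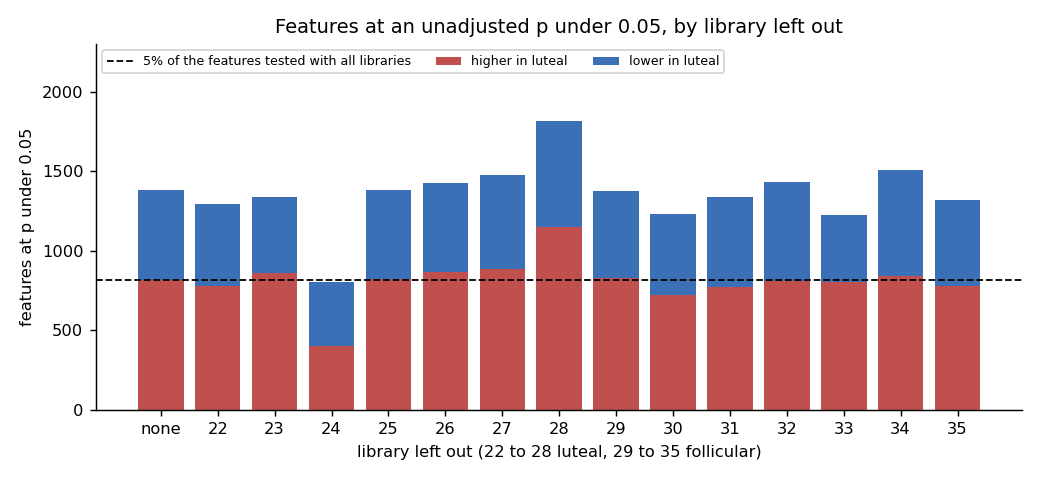
Features at an unadjusted p under 0.05 with all libraries (none) and with each of the 14 libraries left out, higher (red) or lower (blue) in the luteal phase, stacked, with the dashed line at 815. Without library 24 the bar is at 803, the lowest, and without library 28 at 1813, the highest.

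The features on the luteal side and those on the follicular side differed in size and in spread. Among the features at an unadjusted p under 0.05, the median log2 fold change (luteal over follicular) was 0.65 for the 814 higher ones and -0.34 for the 566 lower ones. Of the higher features 184 (22.6%) were over 2-fold, and of the lower ones 38 (6.71%). Without library 24 these numbers were 89 of 401 higher and 33 of 402 lower features. The median log2 fold changes were then 0.60 and -0.34. The higher features varied more between luteal libraries, with a median SD of 0.633 log2 units there and 0.332 between follicular libraries. For the 401 higher features without library 24 these values were 0.469 and 0.377. The lower features had a median SD of 0.231 between luteal and 0.279 between follicular libraries. These features were picked by the same values, so the figures describe them and test nothing.

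These shares varied with level. CPM are not scaled to gene length, so the ranges describe the depth behind a feature. Below a mean of 1 CPM, 57 of 1747 features (3.26%) had an unadjusted p under 0.05, and from 1 to 10 CPM 453 of 5899 (7.68%). From 10 to 100 CPM it was 714 of 7005 (10.2%), from 100 to 1000 CPM 147 of 1574 (9.34%), and above 1000 CPM 9 of 76 (11.8%). The median standard error of the log2 fold change was 0.58 below 1 CPM and 0.14 from 10 to 100 CPM, so a change in the faintest features was hard to detect at this depth.

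The intervals also bound how large a phase difference could be. For 12535 of 16301 features (76.9%), the 95% interval of the fold change excluded a 2-fold difference in either direction. For 8421 (51.7%) it excluded a 1.5-fold difference. The share that excluded 2-fold was 12.7% below 1 CPM, 71.8% from 1 to 10 CPM, 93.3% from 10 to 100 CPM and 94.4% from 100 to 1000 CPM. Above 1000 CPM it was 75%, or 57 of 76 features.

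**Figure D4:**
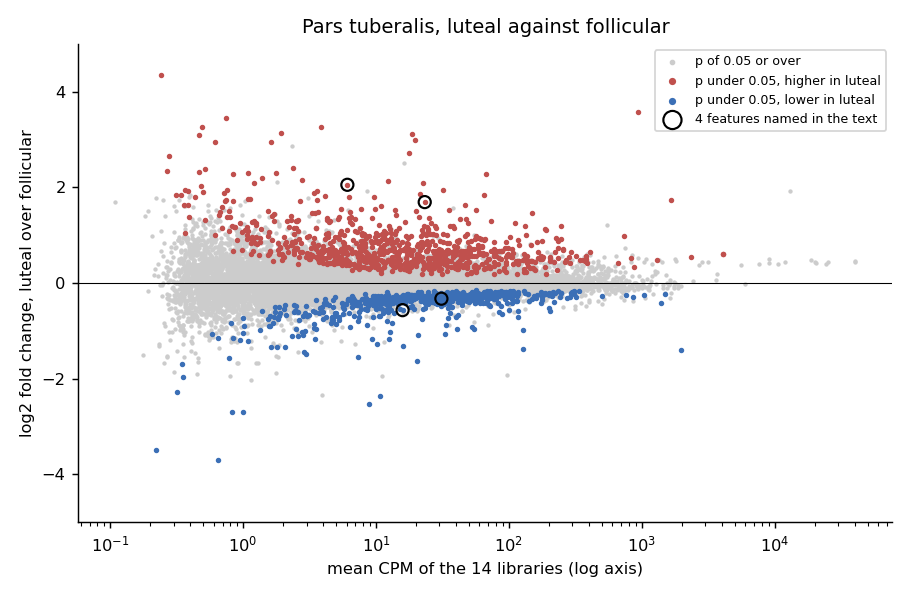
Log2 fold change (luteal over follicular) against mean CPM of the 14 libraries (log axis), 1 point per feature. Coloured points lie at an unadjusted p under 0.05 (814 higher in red, 566 lower in blue) and circles mark the 4 features named by rule; the red points reach further from 0 than the blue ones at most levels, and none passed the adjusted threshold.

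The lowest p belonged to ENSOARG00000016672. It had 3.69 CPM in the lowest luteal library, a median of 9.32 and a maximum of 20.1 CPM, against 1.41, 2.33 and 3.52 CPM in the follicular libraries. The 2 groups did not overlap, and luteal libraries 22, 23 and 26 were the highest. It averaged 9.81 ± 5.64 CPM over the luteal and 2.37 ± 0.915 CPM over the follicular libraries (SD, n = 7 each). The fold change was 4.16, with a 95% interval of 2.22 to 7.81 (edgeR adjusted p = 0.469).

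ENSOARG00000026014 came next. It ranged from 22.3 CPM through a median of 27.9 to 52.7 CPM in luteal libraries, against 6.98, 8.57 and 20.4 CPM in follicular libraries. Again the groups did not overlap, and the same luteal libraries 22, 23 and 26 were highest. It averaged 35.5 ± 12.6 CPM over the luteal and 10.99 ± 5.08 CPM over the follicular libraries (SD, n = 7 each), a fold change of 3.23 (95% interval 1.92 to 5.45, edgeR adjusted p = 0.469).

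The adjusted p of both features depended on the test and on the libraries kept. DESeq2 called both (adjusted p = 0.00649 for each), as did edgeR with all 42 libraries in 1 fit (adjusted p = 0.0453 for each). The adjusted p ran from 0.00649 to 0.998 over 26 alternatives for either feature. The 0.998 came from the edgeR fit without luteal libraries 22, 23 and 24 together. With every library kept, the largest was 0.674 for either feature, with the share of the 10 largest features as covariate. Their separation did not rest on library 24, which held 6.38 CPM of ENSOARG00000016672 and 27.9 CPM of ENSOARG00000026014, below the luteal mean of each.

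In the anestrous pars tuberalis these features reached across both phases. ENSOARG00000016672 lay between 1.21 and 10.6 CPM there with a median of 3.31, and ENSOARG00000026014 between 7.62 and 44.5 CPM with a median of 14.9. Anestrous libraries 38 and 42 were the highest for both.

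ENSOARG00000026531 had the lowest p among features lower in the luteal phase. It ran from 11.1 CPM through a median of 12.6 to 14.7 CPM in luteal libraries, against 13, 17.6 and 25.8 CPM in follicular libraries. The groups overlapped: follicular library 34 lay below luteal libraries 27 and 28. It averaged 12.8 ± 1.38 CPM over the luteal and 18.9 ± 3.99 CPM over the follicular libraries (SD, n = 7 each), with a log2 fold change of -0.57 (95% interval -0.84 to -0.30, edgeR adjusted p = 0.469). DESeq2 called it (adjusted p = 0.0491), and its adjusted p ran from 0.0491 to 0.998 over 26 alternatives. The 0.998 came from the edgeR fit without luteal libraries 22, 23 and 24 together.

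ENSOARG00000008607 was the tightest of the 4. It had 24.9 CPM in the lowest luteal library, a median of 28.6 and a maximum of 29.9 CPM, against 31.2, 35.04 and 39.02 CPM in the follicular libraries, and the groups did not overlap. It averaged 27.5 ± 2.09 CPM over the luteal and 34.5 ± 2.55 CPM over the follicular libraries (SD, n = 7 each). The log2 fold change was -0.33 (95% interval -0.48 to -0.17, edgeR adjusted p = 0.469), a small difference set against a small spread. DESeq2 called it (adjusted p = 0.0328), and its adjusted p ran from 0.0328 to 0.998 over 26 alternatives. The 0.998 came from the edgeR fit without luteal libraries 22, 23 and 24 together. Its anestrous levels, from 28.7 to 34.1 CPM with a median of 30.3, lay across the gap between the phases.

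**Figure D5:**
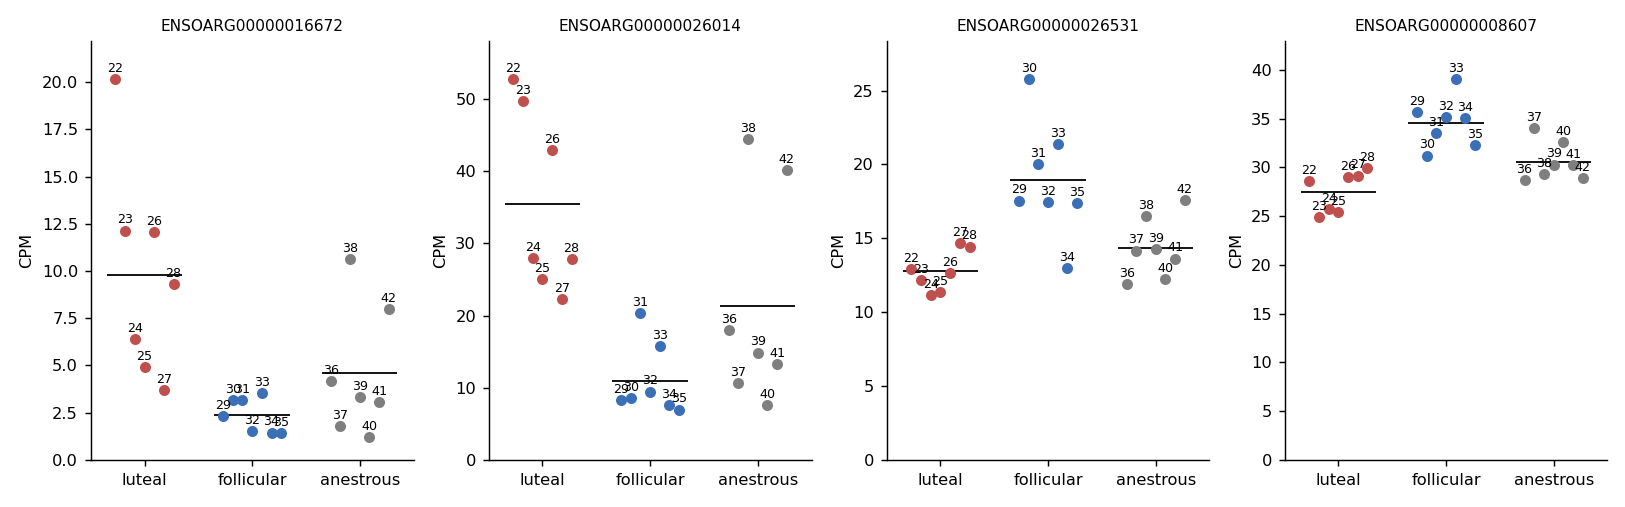
CPM of the 4 features in each luteal (red), follicular (blue) and anestrous (grey) pars tuberalis library, numbered, with the group mean as a line (n = 7 each). ENSOARG00000016672, ENSOARG00000026014 and ENSOARG00000008607 do not overlap between luteal and follicular libraries, and ENSOARG00000026531 does.

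Complete separation of the phases was found in 16 of 16301 features (0.0982%). Some features separate by chance among so many, and whether 16 exceeds that was not tested. In 7 features (0.0429%) every luteal library lay above every follicular one, and in 9 (0.0552%) every luteal library lay below. Among the 20 features with the lowest p on either side, at 1 CPM or more in the higher phase, 3 of the luteal-higher and 5 of the luteal-lower features were separated. The luteal-higher 20 had log2 fold changes of 0.57 to 2.41 with a median of 1.15, and library 24 was the highest luteal library in 14 of them. The luteal-lower 20 had a median log2 fold change of 0.52 in size, from 0.31 to 1.64, and library 24 was the highest luteal library in 1. Both sets of 20 were picked by the same values, so these counts describe them only.

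Features counted in 1 phase alone were mostly seen in few of its libraries. Of 27054 IDs, 1002 had counts in luteal libraries alone and 834 in follicular libraries alone. None of the luteal ones was counted in at least 6 of 7 libraries, and 1 of the follicular ones was. At a minimum of 4 libraries there were 21 IDs counted in luteal and in no follicular library, and 14 the other way round. The highest level among the IDs at that minimum of 4 libraries was 4.08 CPM, here scaled to the raw total of each library. Over all IDs counted in 1 phase alone, the largest count in a library was 432 for luteal and 246 for follicular ones.

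A small set followed luteal libraries 22, 23 and 24 together. In 20 of 16301 features each of these libraries was at least 2-fold above each of the other 11. In 0 features all 3 were at least 2-fold below them. Library 24 was the highest in 20 of the 20. Their log2 fold changes ran from 0.92 to 2.27, and 19 of the 20 were among the 1380 features. The set was picked for these values, and no other 3 libraries were counted in this way, so the values describe the set only. Without the 3 libraries, the unadjusted p was under 0.05 for 623 of 16767 features, where 5% is 838, and edgeR called 0. That fit held fewer luteal libraries, which lowers the power to detect a difference. Leaving out library 24 alone already took the number to 803.

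The most abundant features by count were led by a few whose share varied between luteal libraries. The 10 largest features of a library held 23.8 ± 7.56% of luteal counts and 20.1 ± 2.40% of follicular counts (SD, n = 7 each), a difference of 3.76 percentage points (two-sided exact permutation p = 0.241, 0.632 after adjustment over 4 library measures). It was 1.86 points without library 24 (two-sided exact permutation p = 0.484) and 5.24 points without luteal library 23 (two-sided exact permutation p = 0.0973). Luteal libraries ran from 14.9% to 35.2% and follicular libraries from 15.9% to 22.2%, so the follicular range lay inside the luteal one. Of the 20 features with the largest mean CPM, 19 had a higher luteal mean by the fit and 16 were highest in library 24, but only 2 lay at an unadjusted p under 0.05. The largest averaged 46823 ± 25853 CPM over the luteal and 34034 ± 5656 CPM over the follicular libraries (SD, n = 7 each), with a log2 fold change of 0.46 (edgeR adjusted p = 0.671).

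One abundant feature behaved differently. ENSOARG00000009137, singled out after its values were seen as the most variable above 1000 CPM, lay between 962 and 41276 CPM in luteal libraries with a median of 25374. In follicular libraries it lay between 98.5 and 22788 CPM with a median of 893. Its highest library was 419-fold above its lowest, where the next of the 20 spanned 6.50-fold. Of the 7 luteal libraries 4 lay above every follicular one, yet the log2 fold change of 1.93 had a 95% interval of -0.34 to 4.19 (edgeR adjusted p = 0.651). Anestrous libraries spanned 1350 to 62463 CPM, so its level varied widely within each phase.

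Over all features, the variation among the 14 libraries was also divided between and within phases. The difference between the phase means held 8.72% of the variance of log2 CPM, where the mean over all splits into 7 and 7 is 7.69% (one-sided exact permutation p = 0.115). Without luteal library 28 the share was 10.3% (one-sided exact permutation p = 0.0233), and over 19 alternatives p ran from 0.0233 to 0.315.

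Scatter within a phase did not differ detectably. The mean distance of a library to its own phase mean was 0.751 ± 0.168 log2 units in luteal and 0.709 ± 0.0754 in follicular libraries (SD, n = 7 each; difference 0.0426, two-sided exact permutation p = 0.683, 0.911 after adjustment over 4 library measures). Without library 24 the difference was -0.0343 (two-sided exact permutation p = 0.404). Per feature, the SD was larger between luteal libraries in 8068 of 16301 features (49.5%), and in 6546 (40.2%) without library 24.

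Features with higher levels in the hypothalamus were unevenly spread over the 2 directions. The tissue difference was taken from the anestrous libraries, which enter neither phase mean. Of the 814 features higher in the luteal phase, 180 (22.1%) were over 2-fold higher in anestrous hypothalamus than in anestrous pars tuberalis, as were 35 of the 566 lower ones (6.18%) and 2655 of all 16301 features (16.3%). Features over 2-fold higher in the pars tuberalis made up 9.83% of the higher, 18.9% of the lower and 16.3% of all features. Without library 24, features over 2-fold higher in the hypothalamus made up 130 of 401 higher (32.4%), 24 of 402 lower (5.97%) and 16.5% of all features. ENSOARG00000016672 averaged 11.1 CPM in anestrous hypothalamus and 4.33 CPM in anestrous pars tuberalis, and ENSOARG00000026014 37.4 and 20.1 CPM. Of the 2 named features lower in the luteal phase, ENSOARG00000026531 averaged 12.9 and 13.5 CPM in these tissues. ENSOARG00000008607 averaged 37.4 and 28.8 CPM, so it too was higher in the hypothalamus.

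The 81 hypothalamus-enriched features gave a level for each library. Their median was -0.28 ± 0.52 log2 CPM in luteal and -0.84 ± 0.73 log2 CPM in follicular libraries (SD, n = 7 each; difference 0.56, two-sided exact permutation p = 0.123). The ranges overlapped, from -0.81 to 0.39 in luteal and from -1.72 to 0.51 in follicular libraries, and library 24 was the lowest luteal one. With this level as a covariate, a choice made after the results were seen, the unadjusted p was under 0.05 for 1144 features (768 higher, 376 lower), and edgeR called 0.

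The same phase difference was set against that of the hypothalamus in 1 fit of 42 libraries. No feature of 17296 had a luteal minus follicular difference unlike between tissues at the adjusted threshold with edgeR (0% called), and the unadjusted p was under 0.05 for 552 (3.19%), or 339 without library 24. Limma-voom called 0, with 880 at an unadjusted p under 0.05, and DESeq2 called 1, whose fitted difference lay beyond 10 on the log2 scale.

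For ENSOARG00000016672 the hypothalamus held 11.1 ± 6.06 CPM in the luteal and 5.59 ± 2.19 CPM in the follicular phase (SD, n = 7 each), and the phase difference was 1.07 log2 units larger in the pars tuberalis (95% interval -0.05 to 2.19). For ENSOARG00000026014 the hypothalamus held 38.2 ± 15.1 CPM in the luteal and 22.7 ± 5.88 CPM in the follicular phase (SD, n = 7 each), with a phase difference 0.95 log2 units larger in the pars tuberalis (95% interval 0.03 to 1.86). The difference was -0.28 (95% interval -0.72 to 0.17) for ENSOARG00000026531 and -0.14 (95% interval -0.45 to 0.17) for ENSOARG00000008607. The 4 features were chosen for a low p in the pars tuberalis, which favours a larger difference there, so these values are a description. In each of them the hypothalamus means lay in the same order as those of the pars tuberalis, and the edgeR adjusted p of each difference between tissues rounded to 1.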

How the data were processed

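The authors deposited raw counts in 1 table, with 27054 Ensembl sheep gene IDs as rows and 42 libraries as columns. Per the submitters' processing notes, Trimmomatic 0.38, HISAT2 2.1.0, StringTie 1.3.5 and DESeq2 were among the tools, with no role stated. Genome build, annotation and strand handling: not given in the sources used here. Overlapping or near-identical genes are therefore uncertain. The reference gene table matched 0 IDs, so the 17 gene lists, written by symbol, could not be used. No column was without a sample.

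The 21 pars tuberalis libraries were fitted together with edgeR 4.0.16 under R 4.3.3 (two-sided quasi-likelihood F test, TMM scaling, filterByExpr with a minimum count of 10, Benjamini-Hochberg adjustment, threshold 0.05). CPM are counts scaled by the TMM-adjusted library size, and log2 values carry a pseudocount of 0.5. Intervals are 95% intervals of the fitted difference. Library values were compared by exact permutation over libraries. The difference between tissues used all 42 libraries. The named features were the 2 with the lowest p in each direction with at least 1 CPM in the higher phase. Members and lists were chosen with earlier results of these data known. Alternatives used DESeq2 1.42.0, limma 3.58.1, sva 3.50.0, other scalings, filters and covariates, and each library left out. The tests were checked on simulated data. Those data held independent features and no outlying library, so the check does not cover a library such as luteal library 24.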

Additional observations from a re-analysis of the deposited data

Results flagged for a closer look

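For luteal library 24, 4 values lay far from the rest of the luteal group, and no other value did among 12 measures looked at in the luteal and the follicular phase. The 4 values come from the same 7 luteal libraries and are not independent. Chance flags about 1 group in 20 where values are normally distributed, and whether these measures are was not tested. Its distance to the luteal mean was 1.12 log2 units, with the next luteal library at 0.766. It had 366 features at least 2-fold above all other libraries, with the next at 39, and 115 features at least 2-fold below all others, with the next at 10. Its score on the first principal component was 141.4, with the next at 11.6. Limma-voom gave library 24 a weight of 0.527, against 0.881 to 1.24 for the other luteal libraries and 0.416 to 1.64 for the follicular libraries.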

How the results depend on the processing

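The count of 0 features called with edgeR held under 24 of 26 alternatives. It was 11 with DESeq2 and 4, all higher in the luteal phase, with all 42 libraries in 1 fit, and it was 0 with each library left out. The count at an unadjusted p under 0.05 was 623 of 16767 features without libraries 22, 23 and 24 together. It ran from 803 to 1813 with each library left out. It was 2010 of 22501 features without a filter on low counts. With the 10 largest features' share as covariate, 466 of 1106 features were higher, and with 5 surrogate variables 538 of 1098. The 4 named features kept their direction under all 26 alternatives. The share of variance between the phases ran from 8.67% to 10.3% with each library left out. A share with fewer libraries is larger by itself, so these do not compare directly with the share over all libraries. The difference in spread was -0.00778 without libraries 22, 23 and 24 together, and ran from -0.0343 to 0.0693 with each library left out. The difference in the share of the 10 largest features kept its sign under 17 alternatives and ran from 1.86 to 5.24 percentage points with each library left out. The count of features differing between the tissues was 1 with DESeq2 and 0 with each library left out. The cause of these changes was not tested. No paired analysis was possible because the labels tie no library to an ewe and no library number occurs in more than 1 group. Depth limits features below 1 CPM most.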
